A study of Mus musculus with 2 samples.

Results

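The Fbxw genes of the oocyte cluster on mouse chromosome 9 were taken by symbol, which gave 10 members among the 36227 genes of the deposited table: Fbxw13, Fbxw14, Fbxw15, Fbxw16, Fbxw18, Fbxw20, Fbxw21, Fbxw22, Fbxw24 and Fbxw28. Of these, 9 had a matched row, and the expression of Fbxw14 was not analysed here. The mRNA came from naturally ovulated oocytes at metaphase II (MII) of female ICR mice, an outbred strain, that were 16 weeks old and had become obese by 12 weeks in a standard environment. Slimming mothers then spent 4 weeks in enriched-environment (EE) cages, and control mothers, labelled as fed a standard diet, the same 4 weeks in normal cages. In each group 9 oocytes, 3 from each of 3 mice, were pooled into 1 library, called the slimming pool and the control pool here. A difference between the slimming and the control library therefore has no replicate check, no p-value was computed, and every interval below covers counting error only.

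F-box proteins are the interchangeable subunits of SCF ubiquitin ligases. Their F-box binds SKP1, which links them to the scaffold CUL1 and its RING partner RBX1, while a second domain, here a set of WD repeats, binds the protein to be marked with ubiquitin. The chromosome 9 cluster is a run of duplicated genes known for their expression in mouse oocytes. Fbxw15, also named Fbxo12J, was described as an oocyte gene of the mouse ovary. Fbxw24 was linked in mice to the passage of oocytes through meiotic prophase. For the other members no role is given here.

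The annotation placed 15 Fbxw genes next to each other on the minus strand of chromosome 9, with 0 other protein-coding genes between them. Each of the 10 members begins its coding sequence in exon 1 with a closely similar stretch. The coding starts (GENCODE vM21, build GRCm38) of the 4 most abundant members and of the least abundant one are shown because they let the likeness of the copies be seen directly. Capitals mark bases that differ from Fbxw24 or are absent from it, within the stretch that aligns with the first 60 coding bases of Fbxw24.
Fbxw24: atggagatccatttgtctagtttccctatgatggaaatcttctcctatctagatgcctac
Fbxw18: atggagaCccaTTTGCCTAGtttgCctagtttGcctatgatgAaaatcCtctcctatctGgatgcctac
Fbxw22: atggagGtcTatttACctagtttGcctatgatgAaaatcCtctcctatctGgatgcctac
Fbxw28: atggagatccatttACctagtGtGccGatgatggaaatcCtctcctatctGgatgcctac
Fbxw13: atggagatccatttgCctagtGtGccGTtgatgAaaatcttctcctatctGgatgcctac
Fbxw18 carried 9 inserted bases in this stretch and 6 substituted ones, Fbxw22 8 substituted bases, and Fbxw28 and Fbxw13 7 each. Fbxw14 had the same letters as Fbxw28.

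Part of the promoter sequence of the genes was alike as well. RefSeq promoter windows (build GRCm38.p6, 250 bases before to 50 after the annotated start) were found for 8 members, all but Fbxw13 and Fbxw22. Within them a stretch of 143 to 145 aligned bases was compared between members. It was cut between a starting and an ending sequence that all 8 windows share, so its identity need not hold for the whole window. Over 28 pairs the identity of the stretch ran between 86.8% (Fbxw20 with Fbxw21) and full identity (Fbxw14 with Fbxw28), with a median of 91.7%. The stretches shown are those of the most abundant member, Fbxw24 (chr9:109626034-109626177), of Fbxw28, which Fbxw14 matches letter for letter (chr9:109339628-109339772), and of the least alike pair, Fbxw20 (chr9:109234708-109234851) and Fbxw21 (chr9:109161995-109162139). They lie on the minus strand, and capitals mark the E-box motif CANNTG, the kind of site bound by helix-loop-helix factors.
Fbxw24: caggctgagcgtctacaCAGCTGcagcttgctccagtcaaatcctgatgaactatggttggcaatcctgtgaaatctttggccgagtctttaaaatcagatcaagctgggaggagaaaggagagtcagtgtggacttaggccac
Fbxw28: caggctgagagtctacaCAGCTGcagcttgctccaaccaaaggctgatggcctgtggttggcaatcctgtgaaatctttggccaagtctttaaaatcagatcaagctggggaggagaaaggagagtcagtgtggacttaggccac
Fbxw20: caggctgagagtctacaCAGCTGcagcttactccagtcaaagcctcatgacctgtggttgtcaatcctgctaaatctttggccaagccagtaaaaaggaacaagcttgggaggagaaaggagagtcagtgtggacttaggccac
Fbxw21: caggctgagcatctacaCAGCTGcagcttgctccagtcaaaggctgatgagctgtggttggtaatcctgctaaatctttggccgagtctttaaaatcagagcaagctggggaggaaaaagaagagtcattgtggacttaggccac
CANNTG was present in the windows of 8 of 8 members, and also in 72.1% of the 27025 genes with a window. Its form CAGCTG, counted after the windows had been seen, was present in 8 of 8 members and in 16.1% of genes. Of the homeobox motifs TAATTG and TAATTA and the TATA motif TATAAA, searched like the others on both strands, 0 of 8 member windows held a match, against 8.15%, 5.31% and 14.2% of genes. These matches describe letters and do not show a bound factor. The windows belong to duplicated genes, and CAGCTG lies at the same place in the stretch of all 8. The members are therefore not 8 independent cases. Neither 8 of 8 nor 0 of 8 can be read as enrichment or depletion against the shares of genes. CAGCTG is 1 form of CANNTG, so those shares overlap.

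Because the copies are close, a read from 1 gene can match another, and how the authors treated reads with several matches is not given in the sources used here. Over the 45 pairs of member transcripts the identity of aligned bases was 77.6% to 99.2%, with a median of 83.4%. The pairs at or above 90% numbered 3, namely Fbxw14 with Fbxw28 (99.2%), Fbxw22 with Fbxw28 (93.3%) and Fbxw14 with Fbxw22 (93.1%). Fbxw28 and Fbxw14 had the lowest shares of 50-base windows found in no other annotated gene, 34% and 32.4%. In the other 8 members this share was between 73.3% (Fbxw16) and 94.2% (Fbxw24), and with 35-base windows it was 57.1% to 87.7%. Of the 50-base windows of Fbxw28, 66.0% also occurred in Fbxw14. The length of the reads is not given in the sources used here, and the count of Fbxw28 is uncertain because reads from Fbxw14 may be in it. The closest relative of Fbxw16 outside the members was Fbxw23, annotated as a pseudogene, at 93.9% identity. Exons on the opposite strand overlapped Fbxw16 (Gm42494, 210 bases) and Fbxw15 (Gm42756, 168 bases), and the use of strand in the authors' counting is not given in the sources used here.

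**Figure D1:**
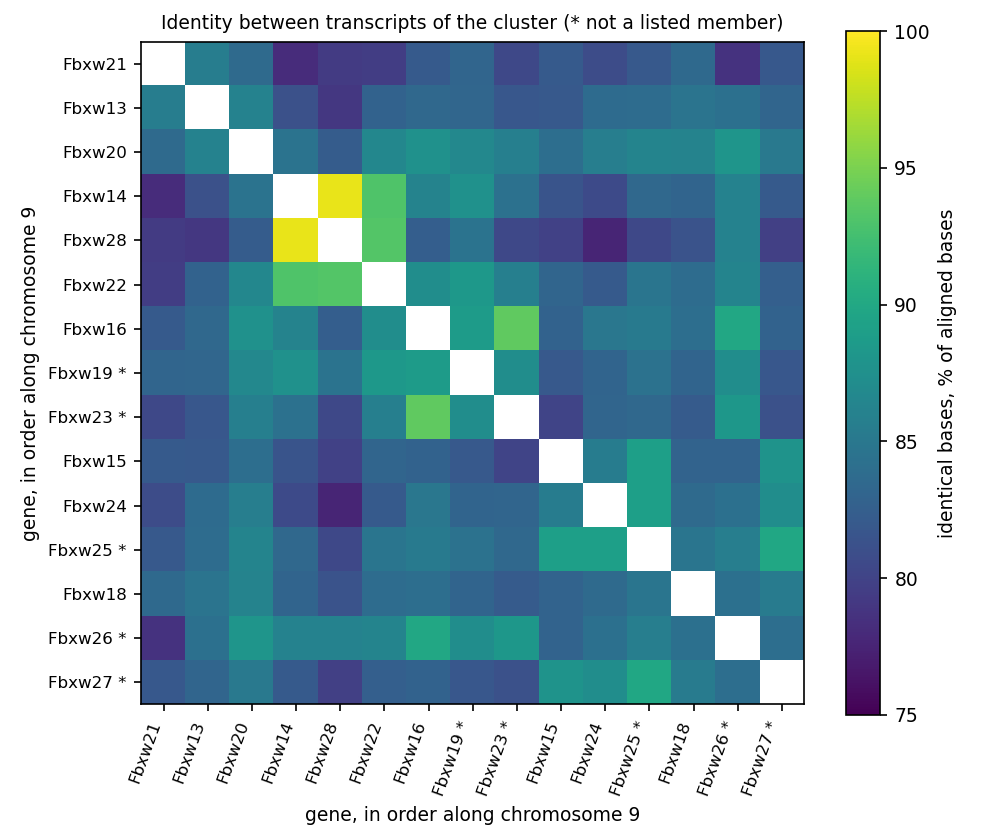
Identity between the transcripts of the 15 Fbxw genes of the cluster, as the percentage of aligned bases, with genes in chromosome order on both axes and an asterisk for genes that are not listed members. The brightest cell is Fbxw14 with Fbxw28 at 99.2%, and the lowest among members is Fbxw24 with Fbxw28 at 77.6%.

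**Figure D2:**
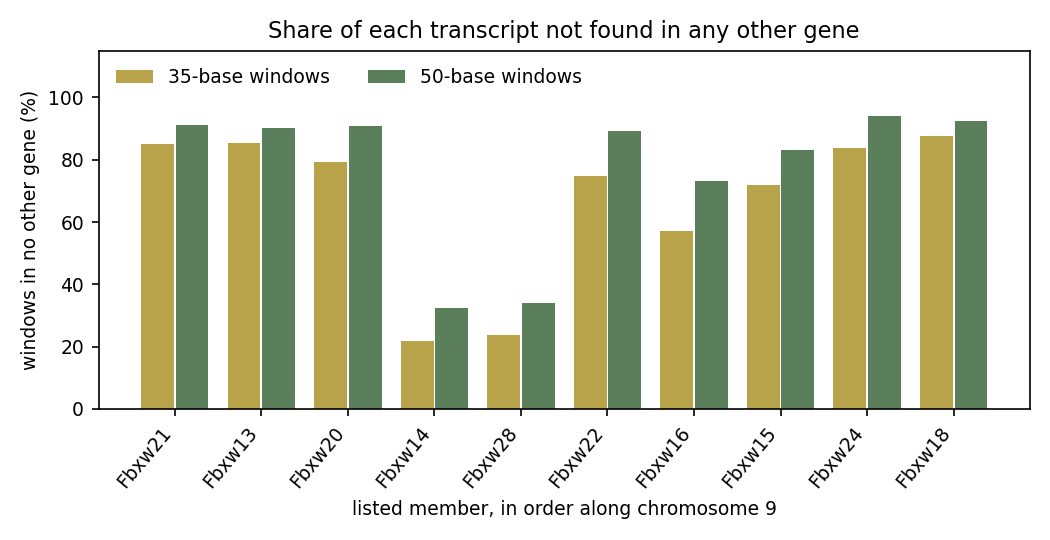
Percentage of the 35-base and 50-base windows of each member transcript that occur in no other annotated gene, with members in chromosome order. Fbxw14 and Fbxw28 stand lowest, at 32.4% and 34% of 50-base windows, and Fbxw24 highest at 94.2%.

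The 9 matched members were present in both libraries. Levels are given as counts and as CPM, the count of a gene scaled to a library total of 1000000. Fbxw24 (ENSMUSG00000062275) had 32524 counts in the slimming pool (1553 CPM) and 32471 counts in the control pool (1604 CPM). It stood 76th in the slimming pool and 69th in the control pool among all genes by count. Fbxw18 (ENSMUSG00000074059) had 18025 counts in the slimming pool (860 CPM) and 17828 counts in the control pool (881 CPM). Fbxw22 (ENSMUSG00000070324) had 15335 counts in the slimming pool (732 CPM) and 16454 counts in the control pool (813 CPM). These 3 genes held most of the counts of the members in both libraries, and the counts of Fbxw22 lay within 2% of those of a gene identifier without a symbol, ENSMUSG00000080238. Fbxw28 (ENSMUSG00000054087) had 4603 counts in the slimming pool (220 CPM) and 5497 counts in the control pool (272 CPM). Fbxw20 (ENSMUSG00000061701) had 3265 counts in the slimming pool (156 CPM) and 2947 counts in the control pool (146 CPM). Fbxw15 (ENSMUSG00000074060) had 2709 counts in the slimming pool (129 CPM) and 2438 counts in the control pool (120 CPM). Of these 3, Fbxw28 was lower in the slimming pool, while Fbxw20 and Fbxw15 had slightly more counts there. Fbxw16 (ENSMUSG00000074062) had 2349 counts in the slimming pool (112 CPM) and 1985 counts in the control pool (98.1 CPM). Fbxw21 (ENSMUSG00000047237) had 1623 counts in the slimming pool (77.5 CPM) and 1486 counts in the control pool (73.4 CPM). Fbxw13 (ENSMUSG00000049314) had the fewest counts, 309 in the slimming pool (14.8 CPM, 95% Poisson interval 13.2 to 16.5) and 181 in the control pool (8.94 CPM, interval 7.69 to 10.3). Its intervals in the slimming and the control pool did not overlap.

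**Figure D3:**
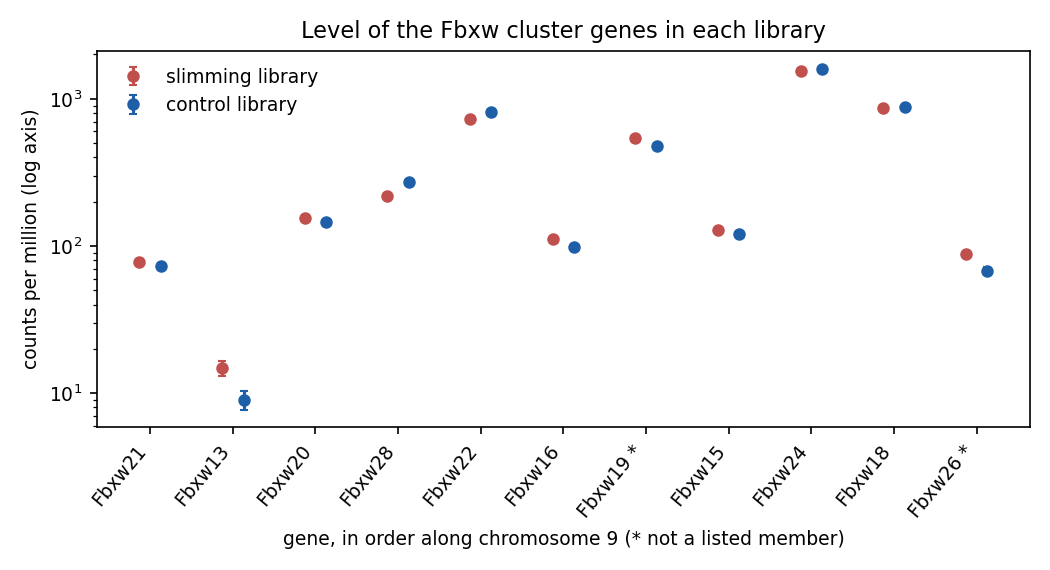
Level of the 9 matched members and of 2 further cluster genes (asterisks) in the slimming library (left, red) and the control library (right, blue), in CPM on a log axis, in chromosome order. Bars are exact 95% Poisson intervals and cover counting error only. For most genes the libraries lie side by side, as for Fbxw24 at 1553 CPM (slimming) and 1604 CPM (control), and the gap is widest for Fbxw13 at 14.8 CPM (slimming) and 8.94 CPM (control).

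Levels were ranked between genes per kilobase of the longest coding transcript. Fbxw24 led with 1043 CPM per kilobase in the slimming pool and 1078 in the control pool, and Fbxw13 came last with 9.93 in slimming and 6.02 in control oocytes. The highest level per length was 105-fold the lowest in the slimming library and 179-fold in the control library. The order Fbxw24, Fbxw18, Fbxw22, Fbxw28, Fbxw20, Fbxw15, Fbxw16, Fbxw21, Fbxw13 was the same in both libraries. The intervals of neighbours in this order overlapped in 0 of 8 pairs in either library. These intervals leave out PCR copies and the division of reads among close copies. Of the 50-base windows of Fbxw28, 34% were in no other gene, against 90.7% for Fbxw20, the next in order. Since the cDNA was primed from the poly(A) end, counts need not scale with transcript length, and the order is that of this scale.

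Of the 9 matched members, 0 were at least 2-fold apart between the libraries. Among the 5714 genes that reached 10 CPM in 1 library or both, 4.67% were, 2.73% higher and 1.94% lower in the slimming pool. At a fold of 1.5 the members counted 1 (Fbxw13), beside 17.5% of those genes. All 9 passed the floor of 10 CPM, but Fbxw13 did so only through the slimming pool, where it was high (14.8 CPM, against 8.94 CPM in the control pool), so its count at 1.5-fold supports nothing. Their log2 ratios of slimming over control, scaled with TMM factors, ran from -0.34 (Fbxw28) to 0.69 (Fbxw13) with a median of 0.05, beside a median of 0.02 over the 5714 genes. Fbxw13 was 1.61-fold higher in the slimming library (log2 0.69, 95% interval 0.42 to 0.96). It was also the member with the fewest counts, and of the 2123 genes with a mean of both libraries between 10 and 30 CPM, as it has, 89.8% had a lower ratio. Fbxw28 was 1.26-fold lower (log2 -0.34, interval -0.39 to -0.28). Of the 947 genes with a mean between 100 and 300 CPM, 13.4% had a ratio below that of Fbxw28. Both values lay between the 5th and the 95th percentile of genes at their level, which were -0.72 and 0.91 between 10 and 30 CPM and -0.52 and 0.61 between 100 and 300 CPM.

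The other members were closer to equal. Fbxw22 was 1.13-fold lower in the slimming library (log2 -0.18, interval -0.21 to -0.15). Fbxw24, at -0.08 (-0.10 to -0.06), and Fbxw18, at -0.06 (-0.09 to -0.03), had the narrowest intervals. Fbxw16 was 1.12-fold higher (0.16, 0.08 to 0.25). The intervals of Fbxw15 (0.07, -0.01 to 0.15), Fbxw20 (0.07, -0.01 to 0.14) and Fbxw21 (0.05, -0.06 to 0.15) included 0 with TMM scaling. In all, the interval left out a ratio of 1 for 6 of 9 members, 2 above and 4 below, as it did for 72.9% of the 5714 genes, 37.7% above and 35.1% below. This count is for TMM scaling: with total counts or DESeq2 size factors, where Fbxw20 and Fbxw15 also left out 1, it was 8 of 9, 4 above and 4 below, beside 73.4% and 73.0% of genes. In the authors' deposited table, Fbxw13, Fbxw16, Fbxw22, Fbxw24 and Fbxw28, or 5 of 9 members, carried the mark for a p-value of 0.001. So did 57.1% of the 5714 genes, and 35.9% of the 15263 genes with a deposited p-value, which sets the reads of 1 library against those of the other. CPM are shares of a library, so fewer transcripts per oocyte and a different total of mRNA per oocyte cannot be told apart.

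**Figure D4:**
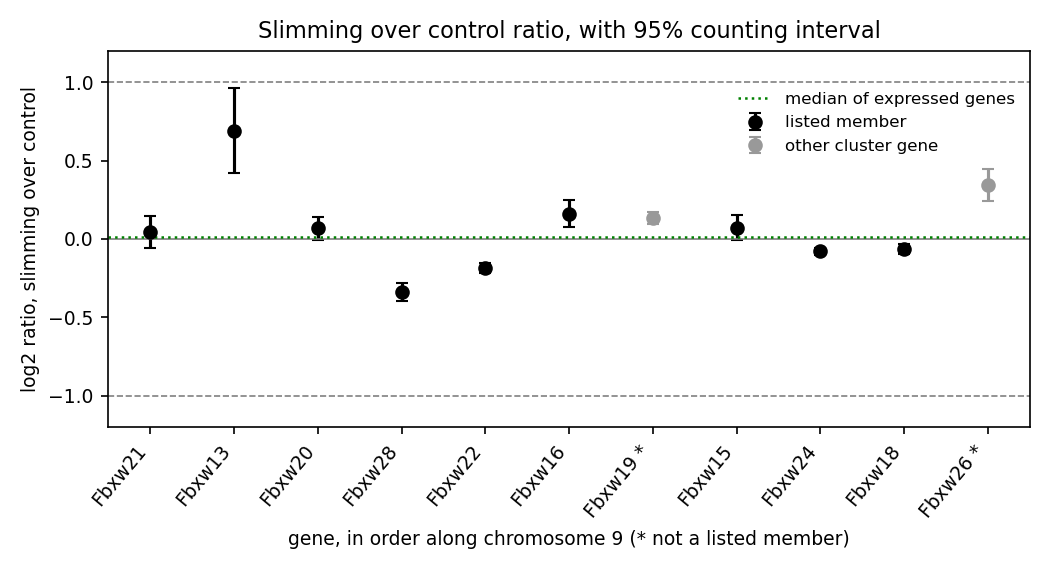
Log2 ratio of slimming over control for the 9 matched members (black) and 2 further cluster genes (grey, asterisks), in chromosome order, with 95% counting intervals. Dashed lines mark a 2-fold difference and the dotted line the median of the 5714 genes. Every point lies between the dashed lines, Fbxw13 highest at 0.69 and Fbxw28 lowest at -0.34.

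**Figure D5:**
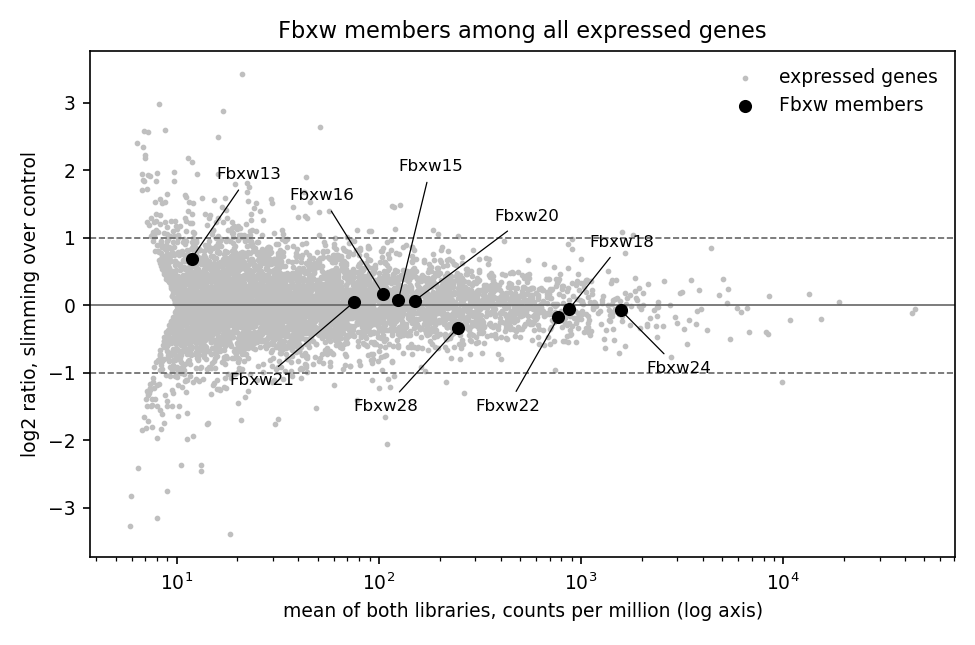
Log2 ratio of slimming over control against the mean of both libraries in CPM (log axis) for the 5714 genes that reached 10 CPM in 1 library or both (grey) and the 9 matched members (black, named). Dashed lines mark a 2-fold difference, and the members lie inside the cloud of genes of their level.

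Once the values were seen, members could be split by level and sign. The 4 members with the highest level per length (Fbxw24, Fbxw18, Fbxw22 and Fbxw28) had ratios below 0, and the 5 others had ratios above 0. Over the 9 members, which share both libraries, Spearman's rho of level per length and ratio was -0.75. This value restates the split in the same data, and no such rho over all genes is given here. Fbxw22 and Fbxw28 are close copies, and Fbxw13, at the low end, passed the floor only through the slimming pool. The 9 are not independent cases, and the rho supports nothing. Over all genes above the floor, by their mean CPM, the median ratio was 0.04 between 10 and 30 CPM, 0.0015 between 30 and 100, 0.0087 between 100 and 300, -0.0037 between 300 and 1000, and -0.05 above 1000. Fbxw19 of the same cluster, not a listed member, does not share the split: its level per kilobase, 363 CPM in slimming and 324 CPM in control oocytes, lay between those of Fbxw22 and Fbxw28, and its ratio was above 0.

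As a sum, the 9 members held 80742 counts in the slimming library (95% Poisson interval 80186 to 81301) and 81287 in the control library (80729 to 81848). This was 0.385% of all slimming counts and 0.402% of all control counts. The sum was 1.06-fold lower in the slimming library (log2 -0.09, interval -0.10 to -0.08). If each read was counted once, it does not depend on how reads were divided among these 9 genes. Reads that were dropped for several matches, counted more than once or shared with genes outside the 9 would change it. Fbxw24 held 40.3% of the sum in the slimming (exact interval 39.9 to 40.6) and 39.9% in the control library (39.6 to 40.3). Fbxw24, Fbxw18 and Fbxw22 together held 81.6% in slimming and 82.1% in control oocytes. The share of Fbxw28 was 5.70% (5.54 to 5.86) in the slimming and 6.76% (6.59 to 6.94) in the control library, and that of Fbxw22 was 19.0% in slimming and 20.2% in control oocytes. The close pair of Fbxw22 and Fbxw28 together had 952 CPM in the slimming pool and 1084 CPM in the control pool, a log2 ratio of -0.22 (-0.25 to -0.19).

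Other Fbxw genes of the cluster with a matched row on chromosome 9 were Fbxw19 and Fbxw26. Fbxw19 (ENSMUSG00000074061) had 539 CPM in the slimming pool and 481 CPM in the control pool, 1.10-fold higher (log2 0.13, interval 0.09 to 0.17). Fbxw26 (ENSMUSG00000059547) had 88.0 CPM in slimming and 67.8 CPM in control oocytes, 1.27-fold higher (log2 0.34, interval 0.24 to 0.45). With both added, the 11 cluster genes with a matched row summed to 4481 CPM in the slimming pool and 4565 CPM in the control pool. The other annotated genes of the cluster, Fbxw14, Fbxw23, Fbxw25 and Fbxw27, had no matched row and are not in this sum. Of the 5 nearest protein-coding genes on each side, chosen after the counts had been seen, 9 had a matched row and 4 reached 10 CPM, as did 9 of 9 matched members, 15.8% of all genes in the table and 31.7% of genes with counts. Their median was 0.286 CPM in the slimming pool and 1.68 CPM in the control pool. The highest was Map4, which encodes a microtubule-associated protein, at 1138 CPM in slimming and 975 CPM in control oocytes.

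The partners of F-box proteins in the SCF ligase were also measured. Over all 5714 genes above the floor 2937 had a ratio above 0 and 2777 below, with a median of 0.02. Of the 33 genes in 4 lists of partners, regulators and other F-box genes that reached 10 CPM, 0 were at least 2-fold apart, beside 4.67% of the 5714 genes. With a share that low, 0 of 33 does not set these genes apart from the others. Cul1, the scaffold, had 2381 CPM in the slimming pool and 2373 CPM in the control pool (TMM-scaled log2 -0.03, interval -0.04 to -0.01). The direction of this small difference turned with the scaling, to 0.0048 with total counts, where the interval of -0.01 to 0.02 included 0. Skp1a, the adaptor that binds the F-box, had 248 CPM in slimming and 326 CPM in control oocytes, 1.34-fold lower in the slimming library (log2 -0.43, interval -0.48 to -0.37). Rbx1, the RING subunit that recruits the ubiquitin-conjugating enzyme, had 184 CPM in slimming and 213 CPM in control oocytes (log2 -0.24, interval -0.31 to -0.18). Its relative Rnf7 was near the limit of these data, with 23 counts in the slimming pool and 44 in the control pool. With TMM scaling the 3 core subunits above the floor had ratios below 0, with a median of -0.24, whereas with total counts Cul1 was above 0 and the other 2 below, with a median of -0.21.

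Among 18 genes of SCF regulation above the floor, 10 had ratios above and 8 below 0, with a median of 0.06. Nedd8, the ubiquitin-like protein that activates cullins, had 286 CPM in the slimming pool and 183 CPM in the control pool, 1.53-fold higher (log2 0.62, interval 0.56 to 0.67). Cops3, a subunit of the COP9 signalosome that removes NEDD8 from cullins, had 10.3 CPM in slimming and 17.6 CPM in control oocytes, 1.74-fold lower (log2 -0.80, interval -1.05 to -0.55). Fbxw genes outside the cluster were mostly higher in the slimming library. Of 7 above the floor, Btrc included, 6 had ratios above 0, and their median was 0.29, beside 0.05 for the members. Fbxw9 had 21.5 CPM in the slimming pool and 10.9 CPM in the control pool (log2 0.94, interval 0.71 to 1.18), and Fbxw4 had 83.1 CPM in slimming and 51.6 CPM in control oocytes (log2 0.65, interval 0.54 to 0.77). Among 5 other F-box genes of oocytes and embryos above the floor, 1 had a ratio above 0. This was Fbxo34, with 667 counts in the slimming pool against 405 in the control pool (log2 0.64, interval 0.46 to 0.82), while Fbxo15 had 529 counts in the slimming pool against 692 in the control pool (log2 -0.47, interval -0.63 to -0.30).

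The libraries held 20947962 (slimming) and 20242289 (control) counts. Where 0 reads were counted, a level up to 0.143 CPM in the slimming pool and 0.148 CPM in the control pool remains possible, equal to 3 counts. Of all 36227 genes, with blank entries read as 0, 20396 had 0 counts for slimming oocytes, against 19761 for control oocytes. As a share of genes, this difference was smaller than those of the granulosa and immune markers below. Why reads were absent was not tested. Markers of the labelled oocytes were present for 10 of 10 matched genes and summed to 99276 CPM in the slimming pool and 101088 CPM in the control pool. Gdf9 and H1foo made up most of that sum, and the zona pellucida genes differed more. Zp3 was 2.05-fold higher in the slimming pool (2450 CPM, against 1172 CPM in the control pool), and past the 2-fold rule. Zp1 was 1.92-fold higher and Zp2 1.75-fold higher. The sum of granulosa and cumulus cell markers was 41.2 CPM in the slimming pool and 54.3 CPM in the control pool, and 9 of 12 had 0 counts in the slimming library against 5 of 12 in the control library. Cyp19a1, with 723 counts in the slimming pool and 793 in the control pool, and Nr5a2, with 136 and 204, held most of this sum. Has2 had 5 counts in the slimming pool and 2 in the control pool. Inha had 0 counts in slimming and 63 in control oocytes, and the defining markers Foxl2, Amhr2 and Fshr had 0 counts in both. Immune markers summed to 25.8 CPM in the slimming pool and 42.6 CPM in the control pool, with 6 of 10 at 0 in slimming and 1 of 10 in control oocytes. H2-Aa held most of this sum, with 374 counts in the slimming pool and 550 in the control pool. Cd68 had 79 counts in the slimming pool and 103 in the control pool, while Laptm5 had more in the slimming pool, 86 against 75. Tyrobp and Fcer1g had 0 counts in the slimming library and 57 and 62 in the control library. Csf1r, Itgam and Lyz2 had 0 counts in the slimming pool and 8, 4 and 1 in the control pool. Ptprc had 1 count in the slimming pool and 2 in the control pool, and Cd74 had 0 in both. Markers of the 2-cell embryo summed to 13.8 CPM in slimming and 12.0 CPM in control oocytes, over 5 matched genes, of which 2 had 0 counts in the slimming pool and 3 in the control pool. Nearly all of this sum was Arg2, with 152 counts in the slimming pool and 82 in the control pool, and Sp110, with 136 and 161. Zscan4c and Tdpoz3 had 0 counts in both pools, and Zscan4f had 1 in the slimming pool and 0 in the control pool. The part of other cells in the ratios of the Fbxw members was not tested.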

How the data were processed

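Per the labels' protocols, the 9 oocytes of a group were lysed in 1 tube, mRNA was primed with an oligo(dT) stretch of 24 bases, and cDNA was amplified for 18 and then 14 cycles before SOLiD 4 sequencing. The submitters' processing notes name mm9. No aligner, counter or read length is given in the labels used here. Whole-number read totals are what the authors deposited, as raw counts per Ensembl gene, blank for 18210 genes, which were read as 0, and filled for 18017. The deposited log2 ratios, z-score and p-value, all made by the authors, compare the reads of the 2 libraries; the deposited score was not used. No molecular identifiers are named, so PCR copies cannot be separated from molecules.

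Ensembl identifiers were looked up in GENCODE vM21 (GRCm38); 16913 of the genes with counts had a symbol. Its transcripts gave lengths, identities and windows, and RefSeq (GRCm38.p6) the promoter windows. Build coordinates were not combined with the counts. Total counts were 20947962 (slimming) and 20242289 (control). Log2 ratios used counts plus 0.5, scaled by TMM factors of 1.01 (slimming) and 0.989 (control) (edgeR 4.0.16, R 4.3.3), with exact Clopper-Pearson intervals at 95%, and DESeq2 1.42.0 size factors as an alternative. Python 3.11.15, scipy 1.17.1, pandas 2.3.3 and Biopython 1.88 were used. The ratio and interval code was tested on simulated data.

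With 1 library per group no test was run; at least 2-fold apart at 10 CPM or more in 1 library is a rule of size. All members, the other cluster genes with a row and the SCF core were named, and from each other list the genes at least 2-fold apart or else the 2 with the largest absolute ratio above the floor; neighbours and markers were named after their values were seen. Members and lists were chosen with earlier results of these data known. Identity was computed on transcripts in place of proteins.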

Additional observations from a re-analysis of the deposited data

How the results depend on the processing

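The count of members at least 2-fold apart stayed at 0 under scaling by total count, DESeq2 size factors, 1 or 5 added to each count, floors of 1 and 30 CPM and no floor. With a fold of 1.5 it was 1 (Fbxw13), where 17.5% of genes passed. The ratios of the 9 members kept their sign under each scaling and each number added, and 34 of 36 such values stayed within the counting interval; Fbxw24 (-0.05) and Fbxw18 (-0.03) moved beyond theirs with scaling by total count, which lifts every ratio by 0.03. The interval left out a ratio of 1 for 8 members with either other scaling and for 6 with TMM, and the ratio of Cul1 was 0.0048 with total counts and -0.0118 with DESeq2 size factors, both compared after seeing the data. The ratio of the summed counts was -0.0591 with scaling by total count, -0.0758 with DESeq2 size factors and -0.0580 with Fbxw19 and Fbxw26 added, an alternative chosen after seeing the data. The median of members was -0.01 with a floor of 30 CPM, which leaves out Fbxw13 and changes its sign, and between 0.04 and 0.08 otherwise, with Fbxw28 left out or summed with Fbxw22 (0.06, both chosen after seeing the data) included. Of 43 SCF partners and other F-box genes that passed a floor of 1 CPM, 3 were at least 2-fold apart (Ccnf, Fbxl13 and Rnf7), each from few counts. The share of all genes at this floor is not given here, so the 3 cannot be judged against it. The span of levels per length was 105-fold with coding length too. Grouping by protein identity was not run. No paired analysis was possible because each group was 1 library. Counting error limits Fbxw13 most; variation between mice and between libraries was not measured.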

Other observations

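A gene identifier on chromosome 9 with no symbol in the annotation used, ENSMUSG00000080238, had nearly the counts of Fbxw22. It had 15235 counts in the slimming pool and 16255 in the control pool, 99.3% and 98.8% of the counts of Fbxw22, and a log2 ratio of -0.17 (95% counting interval -0.21 to -0.14) beside -0.18 for Fbxw22. It was the 1 gene in the table, other than Fbxw22, whose counts lay within 2% of those of Fbxw22 in both libraries, and it was found by its values. Whether both rows hold the same reads was not tested.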
